A study of Mus musculus with 24 samples.

Results

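The stearoyl-CoA desaturases (Scd1, Scd2), the front-end fatty acid desaturases and their relative (Fads1, Fads2, Fads3) and the long-chain fatty acid elongases Elovl1, Elovl2, Elovl3, Elovl5 and Elovl6 were examined in mouse liver. These 10 genes were taken by symbol from the 56205 gene rows of 1 count table, and all 10 were among the 14109 genes that passed the low-count filter and were tested. The livers came from C57BL/6J mice, males and females in equal numbers, kept for 20 weeks on a methionine-choline deficient diet (MCD, 12 libraries) or on a control diet that the labels also call chow (control, 12 libraries). No mutant allele, transgene or drug was named for either group. Poly(A) RNA was prepared from the whole organ, and the labels assign no sex, litter, cage or batch to a library. The methods describe the deficient diet as rich in fat and give no fat content for the control diet, so the missing nutrients and dietary fat cannot be told apart. The study's text also speaks of a CDAHFD model, a choline-deficient diet rich in fat, and whether it means these livers is not clear, so the diet is named here as the labels name it.

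Fatty acid synthase ends at palmitate, and the chains that hepatocytes put into triglyceride, phospholipid and sphingolipid are made from palmitate or from dietary fatty acids in the endoplasmic reticulum. Elongases of the Elovl family carry out the first and rate-setting condensation of each elongation cycle, and desaturases place double bonds with electrons delivered by cytochrome b5 and its reductase. In liver, many of these genes are known targets of SREBP-1c, of the liver X receptors and of the carbohydrate response factor ChREBP, and polyunsaturated fatty acids are known to lower their transcription.

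Total counts ran from 16793207 to 24915175 in control libraries and from 16388650 to 24577848 in MCD libraries. Levels are counts per 1e6 counts of the library (CPM) after scaling with the trimmed mean of M values (TMM). The TMM factors of the diets did not overlap (0.642 to 0.973 in control, 1.07 to 1.26 in MCD), and control replicate 12 had the lowest. A gene was called at a false discovery rate (FDR) of at most 0.01 with an absolute log2 fold change above 0.5, using edgeR's quasi-likelihood test and Benjamini-Hochberg adjustment over all genes tested. By this rule 38.3% of all genes tested were called, 19.2% higher in MCD and 19.1% lower. With total counts alone the median log2 fold change of all genes moved from -0.10 to 0.27, and the calls moved from 2712 higher and 2688 lower to 4539 higher and 848 lower. No source ties the 24 libraries to separate cages or extraction days, so the p-values measure the spread between these livers alone.

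Of the 10 genes, 7 were called lower in MCD livers, 1 was called higher and 2 were not called. The median log2 fold change over the 10 was -1.73, against -0.10 over all genes tested. Every MCD library lay below every control library for 6 of the 10 genes (Scd1, Fads1, Fads2, Elovl2, Elovl5 and Elovl6). The background for that pattern was 4.88% of the genes tested, and 9.50% had every MCD library above every control library, a pattern that none of the 10 genes showed. In either direction 14.4% of all genes tested were apart. Summed over the 10 genes, the level ran from 10167 to 36174 CPM in control livers and from 2317 to 3025 CPM in MCD livers. Without Scd1 the sum still did not overlap, at 4784 to 8560 CPM in control and 1892 to 2880 CPM in MCD.

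**Figure D1:**
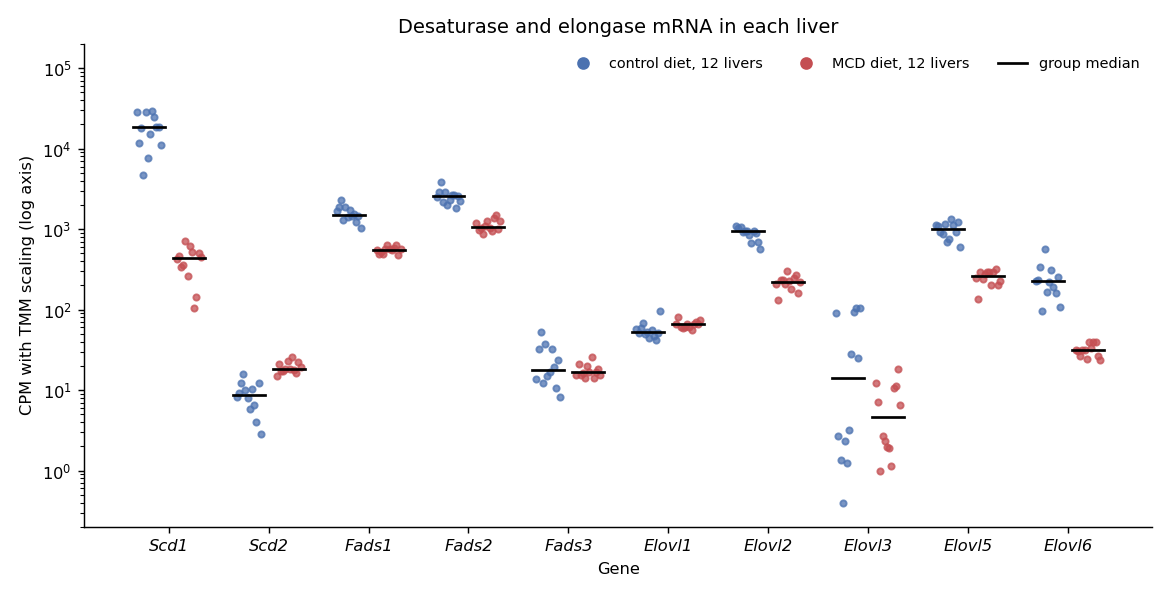
CPM with TMM scaling (log axis) of each of the 10 genes, 1 point per liver, 12 control (blue) and 12 MCD (red), with a bar at the group median. The red points of Scd1, Fads1, Fads2, Elovl2, Elovl5 and Elovl6 lie wholly below the blue points, those of Scd2 lie mostly above, and the control points of Elovl3 span 0.396 to 106 CPM.

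Scd1 (ENSMUSG00000037071, mm10 chr19:44394455-44407879, minus strand) encodes the main hepatic desaturase that turns stearate into oleate and palmitate into palmitoleate. Control livers held 4710, 18414 and 29623 CPM at the lowest, the median and the highest, and MCD livers held 104, 433 and 704 CPM. The highest MCD liver was thus below the lowest control liver. The mean fell from 18092 ± 8447 to 407 ± 177 CPM (SD, n = 12 each), with a log2 fold change of -5.47 (SE 0.35, FDR 1.64e-12). Ordered by mean CPM per kilobase of exon among 13968 genes with an exon length, Scd1 stood 23rd in control livers and 535th in MCD livers. Its share of the summed per-kilobase level of Scd1 and Scd2 had a median of 99.97% in control and 96.0% in MCD. Among control livers replicates 4 and 6 were lowest, at 4710 and 7577 CPM, and among MCD livers replicates 9 and 10 were lowest, at 104 and 145 CPM.

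Scd2 (ENSMUSG00000025203, chr19:44293674-44306864, plus strand), the neighbour of Scd1 and the form best known from brain and from neonatal tissues, was the single gene of the 10 called higher. It ranged from 2.88 through a median of 8.60 to 15.9 CPM in control livers and from 14.9 through 18.5 to 25.9 CPM in MCD livers. The control range reached just into the MCD range, and 11 of 12 MCD livers lay above every control liver. The log2 fold change was 1.13 (SE 0.19, FDR 7.91e-06), and it stayed between 1.06 and 1.24 when any 1 library was left out. Per kilobase, Scd2 was the lowest of the 10 genes in control livers, with a median of 1.57 CPM per kilobase, and was ninth in MCD livers with 3.38.

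The sequences of the Scd genes matter for these values, because reads from fragments that lie wholly in a stretch the genes share cannot be placed. The coding sequences of Scd1 and Scd2 were 89.6% identical, and 2.66% of the 50-base words of Scd2 also occurred in Scd1. The longest identical coding run held 147 bases. In Scd1 it covered chr19:44401693-44401805 in exon 4 and chr19:44400341-44400374 in exon 5 on the minus strand. In Scd2 it covered chr19:44299702-44299814 in exon 4 and chr19:44301212-44301245 in exon 5 on the plus strand. It is printed from the mm10 coding sequence with the 34 bases of exon 5 in capitals.
Scd1 and Scd2 shared run: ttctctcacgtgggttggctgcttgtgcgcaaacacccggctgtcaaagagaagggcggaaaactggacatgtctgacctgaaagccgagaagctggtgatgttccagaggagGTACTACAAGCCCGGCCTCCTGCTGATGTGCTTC
How such reads were counted is not given in the sources used here, so a part of the Scd2 counts may belong to Scd1 and the level of Scd2 is uncertain to that extent. The genes moved in opposite directions between the diets. Within diets their log2 CPM gave r = -0.087 in control livers (permutation p = 0.791, n = 12) and r = 0.29 in MCD livers (p = 0.354, n = 12). The control value was positive under the alternatives run. It was 0.46 without replicates 4 and 6, 0.14 in residuals after the sex-linked score described with Elovl3, and 0.11 with total counts alone. None of these had an adjusted permutation p below 0.05. The other genes of this locus, Scd3 and Scd4, held at most 3 and 5 counts in any library and were not tested.

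Fads2 (ENSMUSG00000024665, chr19:10062765-10101746, minus strand) carries out the first desaturation of linoleate and alpha-linolenate, the entry to long polyunsaturated fatty acids. It ranged from 1838 through 2563 to 3803 CPM in control livers and from 867 through 1074 to 1499 CPM in MCD livers. The diets did not overlap, and the log2 fold change was -1.17 (SE 0.11, FDR 1.34e-09). It was the second most abundant of the 10 genes per kilobase in control livers and the most abundant in MCD livers.

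Fads1 (ENSMUSG00000010663, chr19:10182888-10196877, plus strand) encodes the later desaturase of the same route, which yields arachidonate and eicosapentaenoate. Control livers held 1027, 1490 and 2297 CPM at the lowest, the median and the highest, and MCD livers held 483, 555 and 644 CPM. The groups were again apart, with a log2 fold change of -1.50 (SE 0.11, FDR 7.47e-12). The MCD livers were also close to each other, with a coefficient of variation of 9.45% against 22.1% in control livers.

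Fads3 (ENSMUSG00000024664, chr19:10041569-10060110, plus strand), a relative in the same gene cluster that is known to act on sphingoid bases, was not called. It ranged from 8.10 through 17.9 to 53.3 CPM in control livers and from 14.1 through 16.6 to 25.4 CPM in MCD livers, so the MCD range lay inside the control range. The log2 fold change was -0.39 (SE 0.23, FDR 0.141), with a 95% interval from -0.86 to 0.08. It was -0.17 without control replicate 3, the highest control liver, and -0.066 with total counts alone, and Fads3 was not called in either. No MCD liver was below every control liver. Fads2 and Fads3 shared 5 of their 50-base words and Fads1 shared none with either.

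Elovl6 (ENSMUSG00000041220, mm10 chr3:129532355-129638495, plus strand) extends palmitate to stearate, the substrate of Scd1. It ranged from 95.9 through 225 to 569 CPM in control livers and from 23.8 through 31.3 to 40.0 CPM in MCD livers. The diets were apart, and the log2 fold change of -2.93 (SE 0.22, FDR 2.18e-11) was the second largest in size after that of Scd1. Control livers spread widely, with a coefficient of variation of 52.6% against 18.5% in MCD livers.

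Elovl5 (ENSMUSG00000032349, chr9:77917364-77984519, plus strand) extends polyunsaturated chains and palmitoleate. Control livers held 607, 1003 and 1339 CPM at the lowest, the median and the highest, and MCD livers held 136, 263 and 319 CPM. The groups did not overlap (log2 fold change -1.96, SE 0.14, FDR 9.74e-12).

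Elovl2 (ENSMUSG00000021364, chr13:41182381-41220405, minus strand) acts further along the same route, on the longer polyunsaturated chains that lead to docosahexaenoate. It ranged from 572 through 936 to 1093 CPM in control livers and from 131 through 223 to 302 CPM in MCD livers. These ranges too were apart (log2 fold change -2.02, SE 0.13, FDR 1.31e-12), and the lowest control liver was replicate 12.

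Elovl1 (ENSMUSG00000006390, chr4:118428093-118432953, plus strand), which extends saturated and monounsaturated chains to the very long ones found in sphingolipids, was not called. It ranged from 41.6 through 52.0 to 95.3 CPM in control livers and from 55.7 through 65.9 to 82.0 CPM in MCD livers. The highest value of all came from control replicate 12, and the groups overlapped. The log2 fold change was 0.24 (SE 0.10, FDR 0.0489). Without control replicate 12 it became 0.36 (FDR 0.000128), still under the fold limit. With total counts alone it was 0.61 and Elovl1 was called higher, on a scale where the median of all genes was 0.27. Its exons share 53 bases with Cdc20 on the opposite strand, and strand use in the counting is not given in the sources used here.

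Elovl3 (ENSMUSG00000038754, chr19:46131897-46135694, plus strand) extends saturated and monounsaturated chains and is known from brown fat and skin. In mouse liver it is known for higher levels in males. It spread more than any other of the 10 genes, from 0.396 through 14.3 to 106 CPM in control livers and from 0.979 through 4.64 to 18.5 CPM in MCD livers. The MCD range lay inside the control range, and 6 of the 12 control livers lay above every MCD liver. The log2 fold change was -2.58 (SE 0.76, FDR 0.00465), which passed the rule for a call. Settings that ended the call included limma-voom (-1.18, FDR 0.261), total counts alone (-2.08, FDR 0.0149) and 4 of the 24 fits that left out 1 library.

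Because the mice were of both sexes and the labels give none per library, the spread of Elovl3 was set against a sex-linked expression score. It takes Xist on the log2 CPM scale and subtracts the average of 4 Y-linked genes (Ddx3y, Eif2s3y, Kdm5d, Uty). Libraries enter by their score alone, and none is called male or female. It was below 0 in 6 libraries of each diet and above 0 in 6, and its size was at least 5.21 in every library. Among the 6 control libraries with scores below 0, Elovl3 ran from 25.3 to 106 CPM, and among the 6 with scores above 0 from 0.396 to 3.16 CPM. Among MCD libraries it ran from 6.57 to 18.5 CPM below 0 and from 0.979 to 2.7 CPM above 0. The diets thus did not overlap among libraries with scores below 0 and overlapped among those above 0. With the score as a covariate the log2 fold change of Elovl3 was -1.65 (edgeR FDR 0.000496) and it was called lower.

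A fit with a diet-by-score term, chosen after these values had been seen, gave a diet difference of -2.62 (log2, SE 0.39, edgeR FDR 4.52e-06) at a score of -7.02, the median of scores below 0. At a score of 11.1, the median of those above 0, the difference was -0.29 (SE 0.45, edgeR FDR 0.607). The interaction itself had an unadjusted p of 0.000555 and an FDR of 0.0450, which missed the FDR of 0.01, while 0.418% of all genes tested passed it. The other 9 genes had interaction FDRs of 0.400 or more. Their diet differences kept direction at both scores. Scd1, for example, gave -6.0 and -4.94, and Scd2 gave 1.3 and 0.997.

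**Figure D2:**
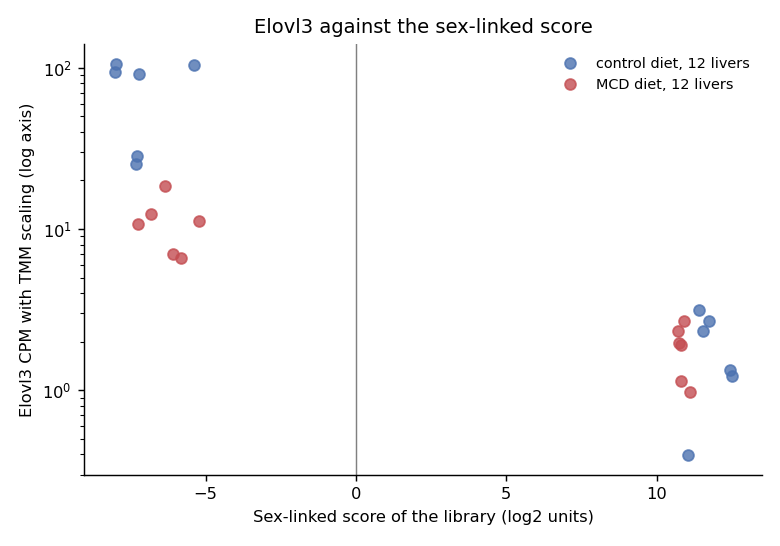
Elovl3 CPM with TMM scaling (log axis) against the sex-linked score of each library, 12 control (blue) and 12 MCD (red). Libraries with scores below 0 carry 6.57 to 106 CPM with the control points above the MCD points, and libraries with scores above 0 carry 0.396 to 3.16 CPM with the diets mixed.

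**Figure D3:**
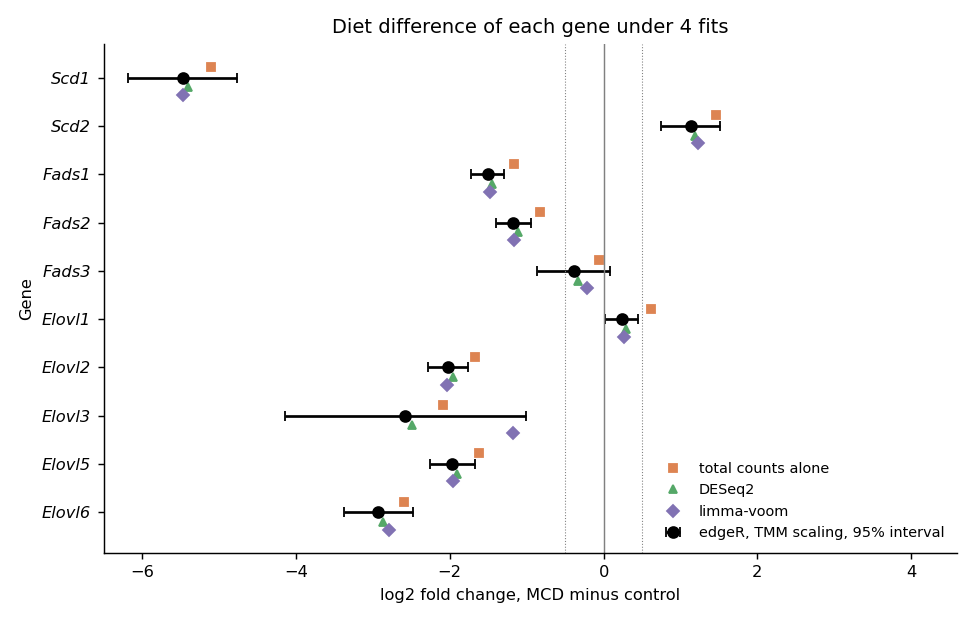
Log2 fold change of each gene, MCD minus control, with the edgeR estimate and its 95% interval in black and the estimates with total counts alone, DESeq2 and limma-voom as coloured marks, and dotted lines at the fold limit of 0.5. Elovl3 has the widest interval, from -4.14 to -1.01, and Elovl1 is the gene whose mark crosses the fold limit with total counts alone.

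The order of the genes by median CPM per kilobase of exon differed between the diets. In control livers it ran Scd1, Fads2, Fads1, Elovl5, Elovl2, Elovl6, Elovl1, Elovl3, Fads3 and Scd2, from 3764 down to 1.57 CPM per kilobase. Between neighbours in that order, the ranges over 12 livers were apart for Fads2 and Fads1 and for Elovl2 and Elovl6 and overlapped for all other pairs. In MCD livers the order ran Fads2, Fads1, Scd1, Elovl5, Elovl2, Elovl1, Elovl6, Fads3, Scd2 and Elovl3, from 326 down to 2.35 CPM per kilobase. Here the ranges were apart for Fads2 and Fads1, for Elovl2 and Elovl1, and for Elovl1 and Elovl6. Scd1 made up 39.8% to 77.6% of the summed per-kilobase level of the 10 genes in control livers and 2.83% to 18.8% in MCD livers.

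Ratios between 2 genes of the same library do not depend on the scaling between libraries, and 6 such ratios were compared between the diets on a log2 scale with 2-sided permutation tests of 100000 resamples. The ratio of Scd1 to Scd2 had a geometric mean of 2224 in control livers and 21.1 in MCD livers, a log2 difference of -6.72 (SE 0.40, adjusted p = 3e-05). No liver of either diet entered the range of the other. The ratio of Elovl1 to Elovl5 was likewise apart and rose by 2.22 (SE 0.21, adjusted p = 3e-05). For both, the unadjusted p of 1e-05 is the smallest that the resamples can give.

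The other 4 ratios had smaller differences. The ratio of Fads1 to Fads2 fell by 0.31 on the log2 scale (SE 0.072, adjusted p = 0.000528), from a geometric mean of 0.421 to 0.339, with overlapping ranges. The ratio of Fads3 to Fads2 rose by 0.97 (SE 0.21, adjusted p = 0.00024), and that of Elovl6 to Elovl5 fell by 0.83 (SE 0.20, adjusted p = 0.00042). The ratio of Elovl2 to Elovl5 had a difference of -0.070 (SE 0.13, adjusted p = 0.59), with geometric means of 0.809 in control and 0.771 in MCD livers. It missed the threshold for ratios, an adjusted p below 0.05, which does not show that it was the same in both diets.

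**Figure D4:**
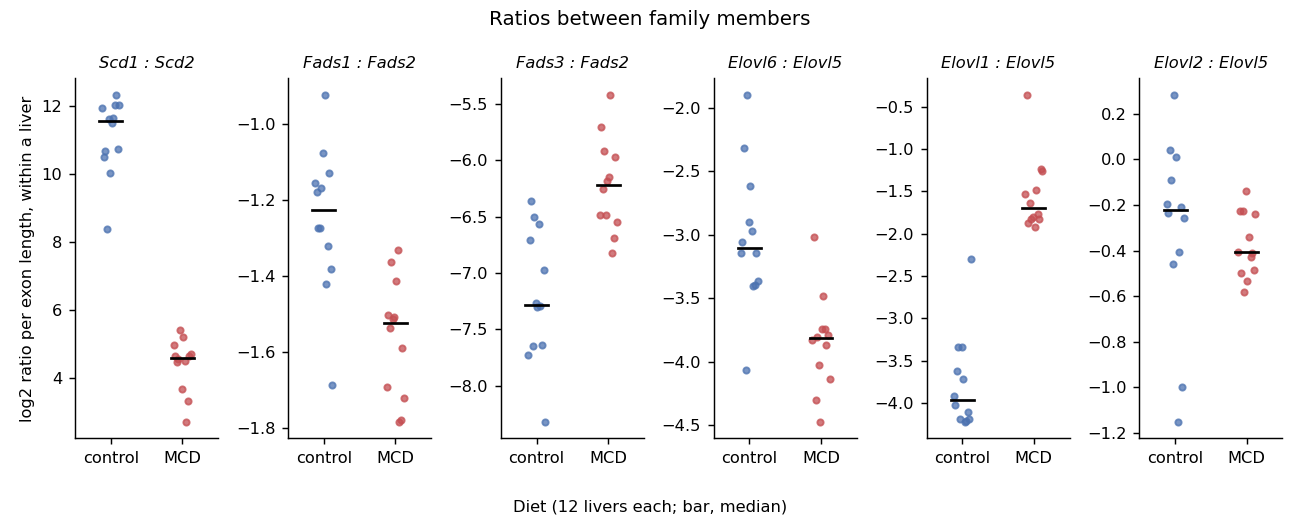
Log2 ratio per exon length of 6 gene pairs within each liver, 12 control (blue) and 12 MCD (red), with a bar at the median and a separate vertical scale in each panel. Scd1 to Scd2 drops from a median of 11.6 to 4.6 and Elovl1 to Elovl5 rises from -3.97 to -1.70 with no overlap, while the ranges of the other 4 ratios overlap.

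Across the 12 livers of a diet, 10 relations were tested (5 pairs of genes in each diet) on log2 CPM with 2-sided permutation tests, and p-values were adjusted over the 10. A relation passed at an adjusted p below 0.05, a looser threshold than that for calling a gene. Fads1 and Fads2, neighbours on chromosome 19, went together in both diets. In control livers r was 0.80 (p = 0.00218, adjusted p = 0.0109) and rho was 0.82 (p = 0.00159, adjusted p = 0.0088), and r was 0.77 (adjusted p = 0.0337) without replicates 3 and 12, the farthest from the median of Fads1. In MCD livers r was 0.80 (p = 0.00177, adjusted p = 0.0109) and rho was 0.77 (p = 0.00477, adjusted p = 0.0159), and r was 0.85 (adjusted p = 0.017) without replicates 6 and 11. The scores fall into 2 clusters of 6 libraries in each diet. In residuals after the score, r was 0.81 in control (adjusted p = 0.00383) and 0.95 in MCD livers (adjusted p = 0.0001).

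Scd1 and Elovl6, consecutive enzymes on the way from palmitate to oleate, went together in control livers (r = 0.72, p = 0.00817, adjusted p = 0.0272), while rho was 0.59 (p = 0.0451, adjusted p = 0.113). Without control replicates 4 and 6, the lowest in Scd1, r was 0.58 (adjusted p = 0.126), so the relation did not pass without those libraries. In residuals after the score it was 0.94 (adjusted p = 0.00015). In MCD livers r was -0.35 (p = 0.272, adjusted p = 0.454), and it was 0.60 (adjusted p = 0.126) without replicates 9 and 10, the lowest in Scd1. Fads1 and Elovl5 gave r = 0.67 in MCD livers (p = 0.0157, adjusted p = 0.0393) and rho = 0.82 (p = 0.00176, adjusted p = 0.0088), which became r = 0.63 (adjusted p = 0.126) without replicates 6 and 11. In control livers that pair gave r = 0.39 (p = 0.209, adjusted p = 0.418), and in residuals after the score r was 0.69 (adjusted p = 0.0256). Scd2 and Elovl1 gave r = -0.14 in control livers (adjusted p = 0.791), but r = 0.82 (adjusted p = 0.0209) without replicates 10 and 12. Whether r differed between the diets was not tested.

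The genes whose log2 CPM, centred within each diet, followed each of the 10 most closely over the 24 libraries were ranked among 10087 genes with a mean of at least 5 CPM, as a description with no test. Elovl3 had the closest companions, Cyp7b1 (r = 0.969), a steroid and oxysterol hydroxylase, and the major urinary protein genes Mup12 (0.960) and Mup7 (0.958). The Mup genes are near-identical copies, so counts for a single one are uncertain. Likeness among libraries of 1 score sign was not computed. The nearest to Scd1 included Orc5 (0.781) and Aacs (0.737), acetoacetyl-CoA synthetase. The nearest to Elovl6 were Dlat (0.851) and Cs (0.813), enzymes of mitochondrial acetyl-CoA and citrate formation, and Rdh16 (0.826).

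The nearest to Fads2 was Fads1 (0.760), followed by Frmd4b (0.653) and Mfsd2a (0.636), a carrier of lysophospholipids with polyunsaturated chains. Fads1 was nearest to Snrk (0.819), Nhlrc2 (0.798) and Dusp6 (0.784). The nearest to Fads3 included Idua (0.861) and Ttc3 (0.852). Elovl2 was nearest to Arl5b (0.797), Slc38a4 (0.779) and Zc3h11a (0.760), and Elovl5 to Tmem135 (0.845), Tmem56 (0.834) and Pik3c2a (0.812). Scd2 was nearest to Tbx20 (0.918), Sox4 (0.891) and Fblim1 (0.886), and Elovl1 to Klhdc4 (0.899), Vars (0.896) and Il3ra (0.871). Control replicate 12 held the lowest Scd2 (2.88 CPM) and the highest Elovl1 (95.3 CPM) of the control livers. The ranking was not repeated without any library, so how far single libraries carry these values was not tested.

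Upstream sequence from RefSeq (GRCm38.p6, which is mm10) was at hand for 6 of the 10 genes (Fads2, Fads3, Elovl1, Elovl2, Elovl5 and Elovl6), as windows of 250 bases before to 50 bases after a start site. Each window was searched on both strands for TCACNCCAC (a sterol response element type, in 1.24% of 32851 windows), CACGTG (an E-box, 7.15%), CCAAT (37.4%), GGGCGG (a GC box, 35.7%) and a direct repeat of the nuclear receptor element AGGTCA with 1 free base between the copies (0.0396%). The upstream parts of 3 windows are printed because these genes share a family and differ in their calls, with Elovl5 and Elovl6 lower and Elovl1 not called. Capitals mark matches on either strand.
Elovl5, chr9:77917115-77917363, plus strand: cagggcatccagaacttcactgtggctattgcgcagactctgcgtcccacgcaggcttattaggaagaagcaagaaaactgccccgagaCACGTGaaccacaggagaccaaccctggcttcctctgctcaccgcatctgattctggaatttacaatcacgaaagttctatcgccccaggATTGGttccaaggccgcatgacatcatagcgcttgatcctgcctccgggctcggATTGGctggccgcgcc
Elovl6, chr3:129532136-129532354, plus strand: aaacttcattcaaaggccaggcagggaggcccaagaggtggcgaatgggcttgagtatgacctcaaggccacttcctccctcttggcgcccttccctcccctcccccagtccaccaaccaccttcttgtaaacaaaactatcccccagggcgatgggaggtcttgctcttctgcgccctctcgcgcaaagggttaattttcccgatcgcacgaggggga
Elovl1, chr4:118427843-118428092, plus strand: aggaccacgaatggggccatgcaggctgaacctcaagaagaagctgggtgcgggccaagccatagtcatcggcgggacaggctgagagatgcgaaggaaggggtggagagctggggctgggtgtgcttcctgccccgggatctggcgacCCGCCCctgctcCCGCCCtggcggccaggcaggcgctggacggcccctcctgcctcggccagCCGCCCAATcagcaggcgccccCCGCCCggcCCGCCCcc
Elovl5 held 1 CACGTG and 2 CCAAT, Elovl6 held none of the 5 motifs, and the printed window of Elovl1 held 1 CCAAT, which shares bases with 1 of its 5 GGGCGG matches. Among the other windows, Fads3 held 2 CCAAT and 2 GGGCGG, Fads2 held 1 GGGCGG, and the upstream window of Elovl2 held 5 GGGCGG. A second start site of Elovl1 (window chr4:118429451-118429750) had 2 GGGCGG, and that of Elovl2 (chr13:41220113-41220412) had none of the motifs. A match is a string of letters in this window and no measure of binding, and these counts do not order the genes by their response.

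The genes that work beside the 10 were taken from 7 lists and described by counts. Of the 8 genes that supply palmitate and its building blocks, 7 were called lower, none was called higher, and the median log2 fold change was -2.48, where 19.1% of all genes tested were called lower and 19.2% higher. Malic enzyme Me1 (-3.32, SE 0.19, FDR 2.94e-13), which makes NADPH, fatty acid synthase Fasn (-3.18, SE 0.27, FDR 1.98e-10) and acetyl-CoA synthetase Acss2 (-2.65, SE 0.27, FDR 4.78e-09) fell most. All 7 were apart between the diets, as were 4.88% of all genes tested in that direction. Mlycd, which degrades malonyl-CoA, was the 1 not called (-0.34, FDR 0.00146, under the fold limit). Acss2 shares 395 exon bases with Gss on the opposite strand, and strand use in the counting is not given.

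Of 6 tested enzymes that complete the elongation cycle after the Elovl step, 3 were called lower and 1 higher, with a median of -0.42. Over all genes tested 19.1% and 19.2% were called, and in so few genes these counts do not set the list apart. The ketoacyl reductase Hsd17b12 went from 168 ± 53.5 to 96.8 ± 11.7 CPM (log2 fold change -0.80), and the enoyl reductase Tecr from 293 ± 73.2 to 173 ± 8.79 CPM (-0.76). The dehydratase Hacd4 rose from 2.76 ± 1.16 to 8.43 ± 1.31 CPM (1.61), with every MCD liver above every control liver. It shares 746 exon bases with Focad on the opposite strand. With total counts alone none of the 6 was called lower, against a median of all genes of 0.27. Tecrl was listed at 0 in every library and was not tested.

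Of the 5 tested genes that feed electrons to the desaturases, 2 were called lower and 1 higher, where 19.1% and 19.2% of all genes tested were called, and in so few genes these counts do not set the list apart. The reductase Cyb5r3 fell from 678 ± 204 to 273 ± 33.3 CPM (log2 fold change -1.31, SE 0.13, FDR 3.29e-09) with the diets apart, and the outer mitochondrial cytochrome Cyb5b fell from 388 ± 90.3 to 162 ± 11.5 CPM (-1.26). Cyb5r1 rose from 9.09 ± 1.82 to 17.0 ± 2.19 CPM (0.90). Cyb5a, the cytochrome of the endoplasmic reticulum, was at 674 ± 145 and 627 ± 53.4 CPM (-0.10, FDR 0.361) and was not called.

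Among 12 regulators 7 were called lower and none higher, with a median of -0.63, beside the same 19.1% and 19.2% of all genes tested. Ppara, the fasting receptor for fatty acids, fell most (-1.76, SE 0.20, FDR 2.51e-08), though its control range of 23.5 to 153 CPM (median 131) overlapped the MCD range of 21.9 to 46.2 CPM. Srebf1, which encodes SREBP-1, was apart, with 356 to 1018 CPM in control and 90.6 to 241 CPM in MCD livers (-1.60, SE 0.20, FDR 1.45e-07). Mlxipl, which encodes ChREBP, fell by 1.26 on the log2 scale (SE 0.13, FDR 3.18e-09). Srebf2 (0.05, FDR 0.587) and the liver X receptors Nr1h3 (-0.27, FDR 0.0157) and Nr1h2 (-0.05, FDR 0.707) were not called.

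Of 8 genes of peroxisomal chain shortening, which completes docosahexaenoate synthesis, 7 were called lower and none higher (median -0.84), where 19.1% and 19.2% of all genes tested were. Abcd2 (-1.18, FDR 0.000814), Acaa1b (-1.16, FDR 1.48e-07) and Scp2 (-0.91, FDR 9.32e-05) had the largest changes among those named by the rule. With total counts alone 3 of the 8 were called lower, as were 848 of the 14109 genes tested. Of 7 tested genes of acyl-CoA activation and phospholipid acylation, 4 were called lower and none higher (median -0.56, against those same shares), led by Acsl5 (-1.41, FDR 1.96e-11), Acsl1 (-0.75, FDR 0.00171) and Acsl3 (-0.59, FDR 0.00157). Under total counts alone that became 1 lower and 1 higher. Acsl5 shares 404 exon bases with Zdhhc6 on the opposite strand.

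Of the family relatives outside the 10, 4 of 7 could be tested. Fads6, a desaturase-like gene of unsettled substrate, fell from 93.2 ± 20.9 to 47.2 ± 6.49 CPM (log2 fold change -0.98, SE 0.13, FDR 2.00e-07). Elovl7 and the sphingolipid desaturase and hydroxylase Degs2 were called higher from means of 1.01 and 0.180 CPM in control livers to 3.78 and 2.42 CPM in MCD livers. They were named here after their values were seen, and Degs2 shares 278 exon bases with Evl on the opposite strand. Degs1 was at 62.7 ± 9.10 and 63.8 ± 6.02 CPM and was not called. Elovl4 held at most 3 counts in any library.

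**Figure D5:**
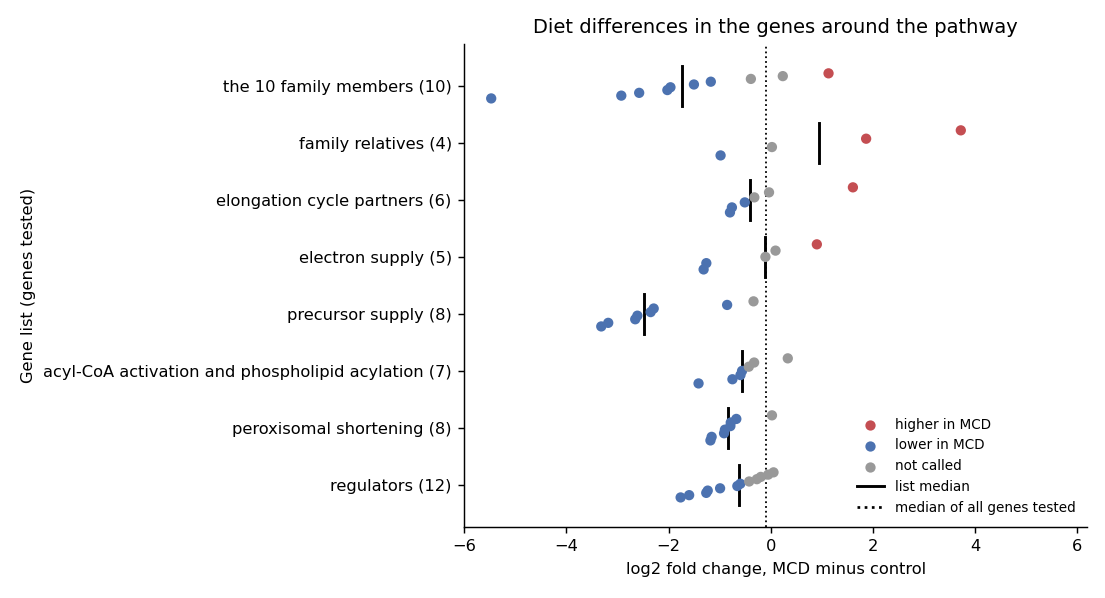
Log2 fold change, MCD minus control, of each tested gene in the family of 10 and in 7 lists (number of genes tested in brackets), coloured by call, with a black bar at the list median and a dotted line at the median of all genes tested (-0.10). Precursor supply has the lowest list median (-2.48), followed by the family itself (-1.73).

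Marker levels of several cell types moved with the diet, and in whole tissue fewer cells of a type and less RNA per cell cannot be told apart. The marker counts that follow stand beside 19.2% of all genes tested called higher and 19.1% lower. Of 7 hepatocyte markers 3 were called lower and 4 were not called, with a median of -0.49, and their summed level ran from 88320 to 190000 CPM in control and from 68180 to 99530 CPM in MCD livers. The 8 markers of monocyte-derived macrophages were all called higher, with sums of 45.3 to 142 CPM in control and 839 to 1834 CPM in MCD livers. The 8 mesenchymal markers (153 to 524 against 766 to 1381 CPM) and the 5 cholangiocyte markers (3.71 to 14.9 against 41.5 to 98.1 CPM) were all called higher as well. Of 6 lymphocyte markers 4 were called higher, as were the 4 proliferation markers. Of 5 Kupffer cell markers 4 were called lower and of 6 endothelial markers 5. The part of these shifts in the higher level of Scd2 or in the lower levels of the other genes was not tested.

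Fat tissue around the liver expresses Scd1 and Scd2 as well, so adipocyte markers were read in every library. They were too low to test, with a summed level of at most 10.8 CPM in control livers and at most 122.5 CPM in MCD livers. The highest sum came from MCD replicate 4, which held 239 counts of Adipoq, 266 of Plin1 and 2293 of Cfd. Scd1 there was 362 CPM and Scd2 was 17.0 CPM, both within the range of the other MCD livers, and without that library their log2 fold changes were -5.41 and 1.18.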

How the data were processed

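The authors deposited 1 table of raw counts per Ensembl gene for 24 mouse liver libraries (12 control, 12 MCD), with a column for each. The submitters' processing notes name bcl2fastq, STAR 2.7.3a and mm10. The counting program, annotation and strand setting of these mouse libraries are not given in the sources used here. The methods name a stranded kit without tying it to these livers, and a pipeline and an Ensembl release for reads aligned to a human reference. Symbols, loci and merged exon lengths came from GENCODE on GRCm38. Rows without a symbol held 0.0808% of counts and stayed in the fit.

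The 10 members and all gene lists were chosen with earlier results of these data known. Groups follow the labels. Genes were filtered with filterByExpr, scaled by TMM and tested with edgeR 4.0.16 (R 4.3.3), without covariates, over all 24 libraries. The biological coefficient of variation was 26.8%. DESeq2 1.42.0 and limma 3.58.1 gave alternative fits. On counts simulated for this comparison over 14109 genes, edgeR called 177 of 200 changed genes (81 of 100 changed by a log2 of 1, 96 of 100 by 2) and 1 unchanged gene. In that simulation few genes changed, as many up as down, and the TMM factors were left out. It therefore does not cover the scaling between the diets. Of the 132 pairs of libraries within a diet, none held identical counts.

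The text names all 10 members, up to 3 called genes per list with the largest absolute log2 fold change and a mean of at least 5 CPM, and the 3 nearest genes per member, of which some are not reported here. Other genes were named after their values were seen. Ratios add 0.5 to each count and divide by exon length. Permutation tests used numpy 2.4.6, and their p-values were adjusted with scipy 1.17.1. Scaled levels are relative, and intervals cover only the spread between libraries. Alternatives tried were other scaling factors, other low-count filters, other tools, the replicate number as a block, the sex-linked score as a covariate, other thresholds, and leaving out each library in turn.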

Additional observations from a re-analysis of the deposited data

How the results depend on the processing

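The calls of 8 of the 10 genes (Scd1, Scd2, Fads1, Fads2, Fads3, Elovl2, Elovl5 and Elovl6) were the same under all 11 alternative settings and in all 24 fits without 1 library. The count of genes called higher was 2 in place of 1 with total counts alone and with an FDR of 0.05 without a fold limit, where Elovl1 joined Scd2, and it was 1 in every fit without 1 library. The count called lower stayed between 6 and 7, and Elovl3 was the gene lost: without control replicate 1 (-2.31, FDR 0.0111) or 10 (-2.33, FDR 0.0102), without MCD replicate 6 (-2.42) or 7 (-2.42), with limma-voom, with total counts alone, and with the replicate number as a block (-1.49, FDR 0.0400). It has no value with at least 10 counts in every sample. Same-numbered libraries of the 2 diets had r over 0.1 in 8 of 12 pairs (median 0.23, against -0.059 for other pairs), and 2 libraries correlated best with their own number, so the numbers were not taken as pairing. The replicate block changed no other call of the 10 genes or of the ratios. Over all genes it called 2781 higher and 2430 lower. Calls over all genes also moved by over 1.5 times with total counts alone (4539 higher, 848 lower) and with upper-quartile factors for the lower calls (1710), and the cause was not tested. With at least 10 counts in every sample the higher calls were 1801. That setting tested 11717 genes in place of 14109, so these counts are of different gene sets. Total counts alone also left 0 elongation partners, 1 acylation gene and 3 peroxisomal genes lower and made 1 acylation gene higher, and DESeq2 left the list counts within 1.5 times. Leaving out 1 library kept every ratio's side of its threshold (Scd1 to Scd2 -6.97 to -6.56, Elovl2 to Elovl5 -0.15 to -0.016). Of the relations, Fads1 with Elovl5 passed in control livers after the score (0.69) and not in MCD livers with total counts alone (0.51) or without 2 libraries (0.63), and Scd1 with Elovl6 in control fell to 0.58. Of the relations that missed the threshold, some changed sign: Scd1 with Scd2 in control to 0.46 without 2 libraries, 0.14 after the score and 0.11 with total counts alone; Scd2 with Elovl1 in control to 0.82 and 0.34 and in MCD to 0.33, 0.12 and 0.30; Scd1 with Elovl6 in MCD to 0.60. Elovl3 had as few as 7 counts in a control library and Scd2 as few as 38.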
